A study of Mus musculus with 55 samples.

Results

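Oxidative phosphorylation is the last stage of fuel oxidation, in which electrons from fats and sugars pass along protein complexes of the inner mitochondrial membrane and the proton gradient they build drives ATP synthesis. Its nuclear-encoded genes were taken here as every gene whose symbol began with Nduf (complex I, NADH dehydrogenase), Uqcr (complex III, cytochrome bc1), Cox4 to Cox8 (complex IV, cytochrome c oxidase) or Atp5 (complex V, ATP synthase), and the 4 succinate dehydrogenase genes Sdha, Sdhb, Sdhc and Sdhd (complex II). The rule used no measured value, apart from taking the brightest of a gene's probe sets and a minimum brightness. It was set with earlier results of these data known. On the mouse genome array 179 probe sets carried 1 symbol of this kind, for 90 of 18193 genes. Of these, 83 exceeded 20 on the linear scale (4.32 on the log2 scale) in at least 3 arrays, among 8237 genes that did. The 83 comprised 33 subunits and 8 assembly factors of complex I, 4 subunits of complex II, 8 of complex III, 13 of complex IV and 17 of complex V. All 83 passed the minimum in each of the 55 arrays, so none entered through a single group.

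The study measured mRNA in whole hearts of male Sv129 mice, 1 Affymetrix array per heart, 6 h after a single gavage of 400 µL that followed a fast of 4 h. Wild-type mice (WT, 25 hearts) were of the 129S1/SvImJ substrain and PPARα-/- mice (KO, 30 hearts) of the 129S4/SvJae substrain. The gavage was 0.5% carboxymethyl cellulose alone (control), Wy14643 at 10 mg/mL in that vehicle, or undiluted synthetic triolein, trilinolein, trilinolenin or tridocosahexaenoin. Among WT mice there were 3 control hearts, 5 hearts each for trilinolein and tridocosahexaenoin, and 4 each for triolein, trilinolenin and Wy14643. Each of the 6 KO groups had 5. All animals had eaten the same diet, in which olive oil took the place of corn oil, for 2 weeks, and the labels give their age both as 9 to 12 weeks and as 2 to 6 months. PPARα is a nuclear receptor that fatty acids activate, and Wy14643 is a synthetic agonist of it. Triolein carries oleic acid, trilinolein linoleic acid, trilinolenin linolenic acid and tridocosahexaenoin docosahexaenoic acid. KO and WT mice differ in substrain as well as in the deleted gene, so the 2 cannot be told apart in any comparison of genotypes.

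Complex I and complex II pass electrons to coenzyme Q, complex III hands them to cytochrome c, complex IV reduces oxygen with them, and complex V makes ATP from the resulting gradient. Most subunits are encoded in the nucleus, and several subunits of complex IV exist as a form found in most tissues and a form of heart and skeletal muscle. Working heart muscle, which draws most of its ATP from fat, is packed with mitochondria, and the nuclear receptors and coactivators that govern fat oxidation have also been tied to the genes of these complexes.

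The arrays were alike: their medians lay between 2.55 and 2.61 on the log2 scale, and the correlation between any 2 arrays over all probe sets was 0.988 to 0.996. Cardiomyocyte markers were all bright, with Myh6 at a mean of 14.8, while the skeletal muscle myosins Myh1, Myh2 and Myh4 passed the minimum in 0 arrays. Of 6 brown fat markers, Cidea and Ppargc1a passed in all 55 arrays and the other 4, Ucp1 among them, in 0. Ppara itself was lower in KO controls than in WT controls by a log2 difference of -0.726 ± 0.13 (standard error, limma adjusted p = 0.000132), and by -0.767 ± 0.049 averaged over the 6 treatments (adjusted p = 2.98e-18). Its 3 probe sets fell below every WT array in 18, 29 and 10 of 30 KO arrays. In tissue RNA, fewer cells of a type and less RNA per cell cannot be told apart.

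The promoters of 5 members whose levels differed by genotype are shown first, because the factors known to act on genes of this kind bind there. Nuclear respiratory factor 1 (NRF1) and the ETS-family factor GABP are the best known of these. Of the 83 members, 70 had a window of 300 bases in RefSeq (GRCm38.p6), from 250 bases before the annotated start to 50 after it. The others were Atp5a1, Atp5mpl, Cox4i1, Cox6a2, Cox6c, Ndufa2, Ndufaf6, Ndufb9, Ndufs1, Sdhc, Uqcrb, Uqcrc2 and Uqcrq. The windows were Cox6a1 at chr5:115348909-115349208 (minus strand), Cox7a1 at chr7:30183921-30184220 (plus strand), Cox8a at chr19:7217567-7217866 (minus strand), Cox8b at chr7:140900397-140900696 (minus strand) and Ndufa3 at chr7:3617123-3617422 (plus strand). Capitals mark matches on either strand to the motifs searched, and each sequence runs 5′ to 3′ along the gene's own strand.
Cox6a1: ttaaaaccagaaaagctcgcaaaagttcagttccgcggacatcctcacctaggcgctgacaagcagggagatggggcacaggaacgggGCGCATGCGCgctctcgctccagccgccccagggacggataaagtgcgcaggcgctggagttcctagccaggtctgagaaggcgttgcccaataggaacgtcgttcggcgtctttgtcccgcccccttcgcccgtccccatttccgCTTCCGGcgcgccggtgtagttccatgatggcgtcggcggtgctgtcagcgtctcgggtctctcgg
Cox7a1: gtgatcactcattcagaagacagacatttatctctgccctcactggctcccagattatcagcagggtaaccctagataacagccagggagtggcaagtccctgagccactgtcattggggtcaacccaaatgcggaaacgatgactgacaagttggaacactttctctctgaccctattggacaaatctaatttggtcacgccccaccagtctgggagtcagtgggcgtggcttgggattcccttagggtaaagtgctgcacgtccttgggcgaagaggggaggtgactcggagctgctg
Cox8a: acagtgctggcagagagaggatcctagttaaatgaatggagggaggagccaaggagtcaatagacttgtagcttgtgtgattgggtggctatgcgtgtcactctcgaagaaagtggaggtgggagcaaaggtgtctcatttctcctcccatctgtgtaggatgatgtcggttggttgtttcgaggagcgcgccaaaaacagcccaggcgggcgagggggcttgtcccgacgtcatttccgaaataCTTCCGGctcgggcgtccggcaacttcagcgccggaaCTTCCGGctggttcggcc
Cox8b: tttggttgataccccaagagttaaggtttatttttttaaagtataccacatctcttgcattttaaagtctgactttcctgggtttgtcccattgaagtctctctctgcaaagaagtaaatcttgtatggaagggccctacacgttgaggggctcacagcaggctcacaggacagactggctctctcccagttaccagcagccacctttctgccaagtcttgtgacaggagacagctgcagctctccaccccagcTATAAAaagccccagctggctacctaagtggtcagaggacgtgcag
Ndufa3: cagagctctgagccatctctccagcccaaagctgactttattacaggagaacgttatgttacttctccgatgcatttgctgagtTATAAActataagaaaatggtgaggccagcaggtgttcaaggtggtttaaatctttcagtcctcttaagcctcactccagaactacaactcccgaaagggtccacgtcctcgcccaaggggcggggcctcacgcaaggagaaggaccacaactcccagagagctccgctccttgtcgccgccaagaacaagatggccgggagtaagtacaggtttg
The capitals in Cox6a1 are a full NRF1 palindrome and an ETS core, and those in Cox8a are 2 ETS cores. Those in Cox8b and Ndufa3 are a TATA motif, and Cox7a1 held none of the motifs searched. Among the 70 members, the full NRF1 palindrome, spelled by the first capitals in Cox6a1, was present in 6 (8.57%, against 1.07% of all 27025 genes with a window) and its inner part GCATGCGC, which lies within it, in 11 (15.7% against 3.05%). The ETS core CCGGAAG was present in 19 (27.1% against 9.93%), the estrogen-related receptor element TCAAGGTCA in 2 (2.86% against 0.47%) and TATAAA in 7 (10% against 15.7%). The PPAR element, AGGTCA repeated after 1 free base, was in 0 of 70 windows, and in 0.05% of all genes. The median GC content of the members' windows was 59.0%, against 52.7% for all windows. A match describes letters and is not a binding site.

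The members were among the brightest probe sets of the heart. Their means over 55 arrays ran from 5.42 (Ndufb1) to 13.5 (Atp5h) on the log2 scale with a median of 12.3, against a median of 7.05 for all tested genes, and 73 of 83 lay in the top 10%. Brightness depends on the probes as well as on the transcript, so it ranks no gene above another in mRNA. Complex I assembly factors, which build the complex without staying in it, were the dimmest class. The 7 members that did not pass were Cox4i2, Cox6b2, Cox7b2, Cox7c, Cox8c, Ndufa4l2 and Ndufb4. Cox4i2, Cox6b2 and Cox8c are forms of tissues other than heart muscle, whereas Cox7c and Ndufb4 encode subunits found in all tissues, and their probe sets were dim.

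**Figure D1:**
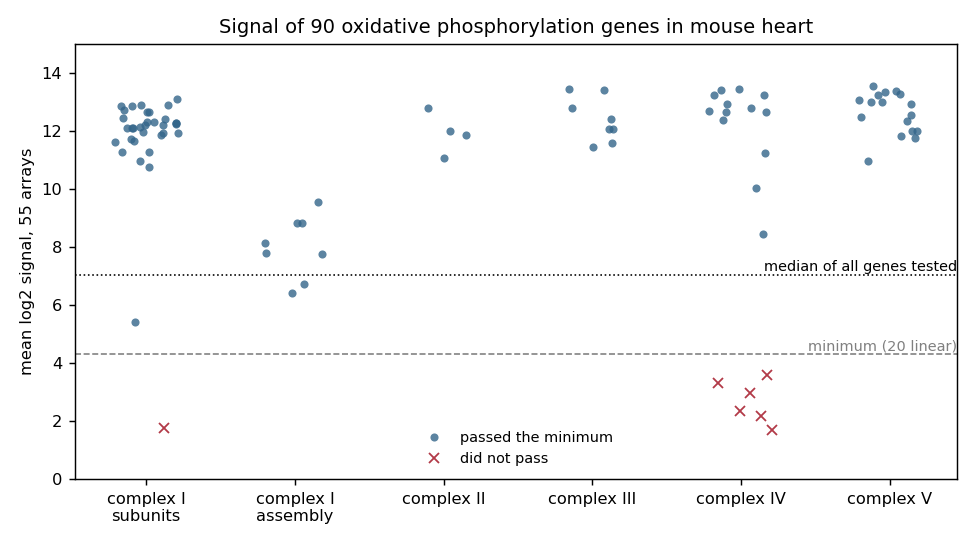
Mean log2 signal over 55 arrays (vertical axis) of the 90 members, grouped by complex, with crosses for the 7 that stayed below the minimum of 20 on the linear scale (dashed line). Most members lie far above the median of all tested genes (dotted line, 7.05). Among members that passed, the complex I assembly factors lie lowest as a class, and Ndufb1, a complex I subunit, is the dimmest gene.

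The members varied little. The standard deviation within groups, pooled over the 12 groups, had a median of 0.058 on the log2 scale over members and 0.167 over all tested genes. The range of the 12 group means had a median of 0.107 over members and 0.343 over all genes, and the range exceeded 0.5 for 0 of 83. Among members the range was smallest for Atp5h, a stator subunit of ATP synthase (0.042), and largest for Cox6a1 (0.445). The 751 other tested genes in the top 10% of mean signal had a median SD of 0.083 and a median range of 0.189, between the members and all genes. The 73 members in that top 10% had a median SD of 0.055 and a median range of 0.101.

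The mean over the members of each complex differed little across the 12 groups. A range of 12 group means and an SD between hearts of 1 group are unlike measures, so they are only set side by side. Complex I subunits had group means from 11.918 (WT Wy14643) to 11.983 (KO control), with SDs within groups of 0.014 to 0.043. Complex II means ran from 11.909 (WT triolein) to 11.998 (KO control), with SDs of 0.011 to 0.06. Complex III means ran from 12.38 (KO trilinolenin) to 12.454 (KO control), with SDs of 0.013 to 0.061. All 3 of these complexes, which carry electrons as far as cytochrome c, were highest in KO control hearts, as was complex IV. Complex IV means ran from 12.221 (WT trilinolenin) to 12.276 (KO control), with SDs of 0.018 to 0.052. Complex V means ran from 12.607 (KO trilinolenin) to 12.65 (WT trilinolein), with SDs of 0.009 to 0.036. The 8 assembly factors of complex I spread more, from 7.949 (WT trilinolenin) to 8.066 (KO control), with SDs of 0.033 to 0.115.

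**Figure D2:**
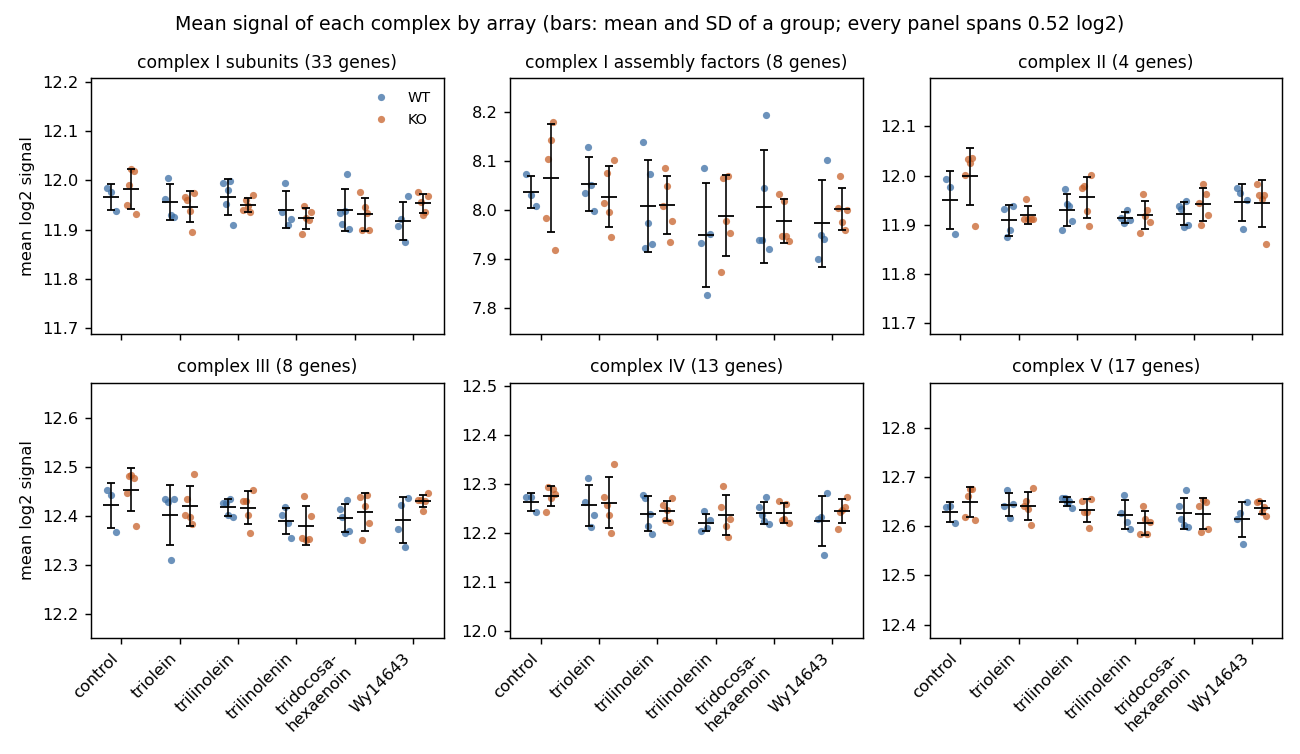
Mean log2 signal over the members of each complex in every array (points), for WT and KO hearts under 6 treatments, with the mean and SD of each group. Every panel spans the same distance on the vertical axis, and in each complex the arrays of neighbouring groups overlap.

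The first question was whether hearts without PPARα differ in these genes when given vehicle alone. No member passed limma's test between KO and WT control hearts (0 of 83 at an adjusted p under 0.05), where 3.62% of all 8237 genes were called. At an unadjusted p under 0.05 there were 5 members, and the share of all genes at that threshold is not given. The median difference of the members, KO minus WT, was 0.0248 on the log2 scale (0.00697 for all genes), and 55 of 83 were above 0. For 77 of 83 the 95% interval of the difference lay within 1.2-fold either way. The largest difference was in Ndufaf2, an assembly factor of complex I, at 7.915, 7.897 and 7.921 in WT and 7.601, 7.809, 7.629, 7.815 and 7.441 in KO controls. All 5 KO hearts lay below all 3 WT hearts, with a difference of -0.252 ± 0.0788 (adjusted p = 0.0623, and 0.0304 to 0.251 over 18 alternatives, 4 of which called it). Ndufa3, an accessory subunit of complex I, measured 13.008, 13.006 and 12.974 in WT and 12.857, 12.887, 12.925, 12.918 and 12.8 in KO controls. Its groups did not overlap either, with a difference of -0.119 ± 0.0443 (adjusted p = 0.165). With 3 and 5 hearts such a gap can arise without a difference. The share of all genes whose groups did not overlap was not computed. Leaving out KO control 2 or KO control 4 gave 1 call lower in KO, and leaving out KO control 5 gave 1 call higher in KO.

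Averaged over the 6 treatments, which sets 30 KO against 25 WT hearts, 15 of 83 members differed (18.1%, limma), 8 higher and 7 lower in KO. Among all genes 39.0% differed, 22.8% higher and 16.1% lower. The differences were small: the largest were 12.8% higher for Cox6a1 and 9.94% lower for Ndufa3, all 83 intervals lay within 1.2-fold, and 78 lay within 1.1-fold. The median absolute difference was 0.0226 over members, 0.0799 over all genes and 0.0566 over the other genes in the top 10% of brightness, of which 47.1% were called. The direction of the calls depended on scaling: quantile normalization of the tested genes gave 18 higher and 3 lower, and centring each array on its median gave 3 higher and 16 lower. The mean of KO lay below that of WT under all 6 treatments for 8 members (9.64%, and 13.9% of all genes), and under none for 15 (18.1%, and 19.5% of all genes).

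**Figure D3:**
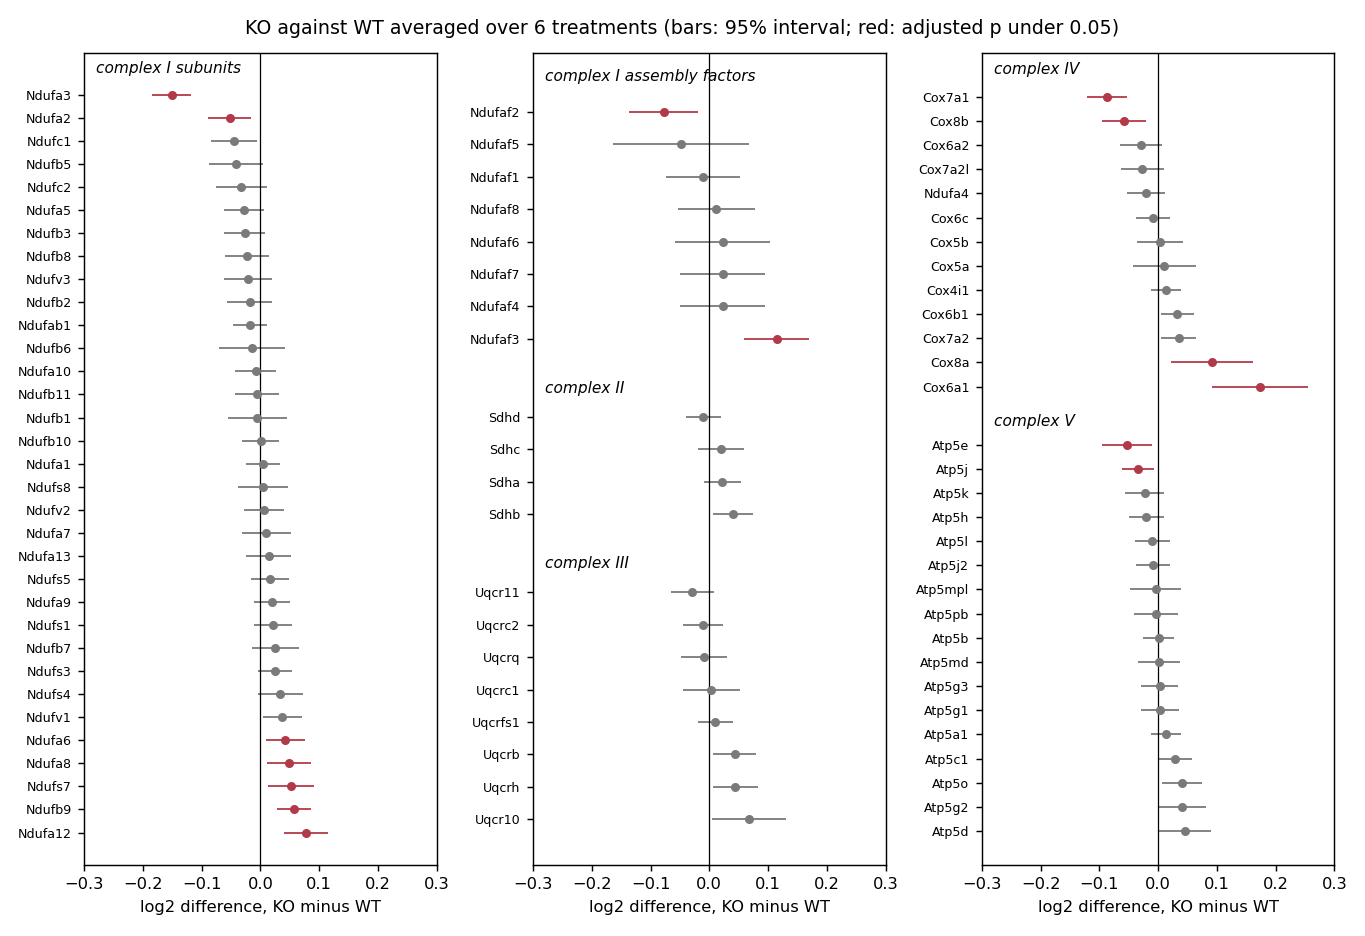
Log2 difference, KO minus WT, averaged over 6 treatments (horizontal axis) for the 83 members by complex, with the 95% interval and red for an adjusted p under 0.05. The 15 red members lie on both sides of 0, from -0.151 (Ndufa3) to 0.173 (Cox6a1).

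Complex I held 7 of these calls among its 33 subunits, 5 higher and 2 lower in KO, where 39.0% of all genes were called. The largest of the 7 was in Ndufa3. Its signal ran from 12.894 through a median of 12.974 to 13.066 in WT hearts and from 12.688 through 12.838 to 12.925 in KO hearts. Of 30 KO hearts, 26 lay below every WT heart and all 30 lay below the WT median. The difference was -0.151 ± 0.0166 (limma adjusted p = 1.98e-10), and both bright probe sets of the gene gave it, at -0.151 and -0.148. By group, the WT means ran from 12.933 (Wy14643) to 13.021 (trilinolein) and the KO means from 12.788 (tridocosahexaenoin) to 12.877 (control), so every WT group was above every KO group. Ndufa2, another accessory subunit, was lower in KO by -0.0523 ± 0.018 (adjusted p = 0.018). The 5 higher members were Ndufa12 at 0.0781 ± 0.0185 (adjusted p = 0.000638), Ndufb9 at 0.0576, Ndufs7 at 0.052, Ndufa8 at 0.0487 and Ndufa6 at 0.0423. Ndufs7, which holds an iron-sulfur cluster of the electron path, is the only core subunit among them, and the others are accessory. Ndufa12 ran from 12.292 through a median of 12.426 to 12.544 in WT and from 12.346 through 12.499 to 12.615 in KO, and 28 of 30 KO hearts lay above the WT median. The smallest difference in the complex was that of Ndufb10, at 0.0005 ± 0.0155. The call of Ndufa6 was lost in 18 of 64 alternatives, and those of Ndufa3 and Ndufa12 in 0 of 64.

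Of the 8 assembly factors of complex I, Ndufaf3 was higher in KO and Ndufaf2 lower, where 39.0% of all genes were called. Ndufaf3 ran from 7.854 through a median of 8.07 to 8.342 in WT and from 8.027 through 8.161 to 8.386 in KO. The ranges overlapped, though 28 of 30 KO hearts were above the WT median, and the difference was 0.114 ± 0.0275 (adjusted p = 0.000764, called in all 64 alternatives). Ndufaf2 differed by -0.0778 ± 0.0295 (adjusted p = 0.0319). The smallest difference was in Ndufaf1, at -0.0109 ± 0.0314.

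Neither complex II nor complex III held a call, where 39.0% of all genes were called. Sdhb, the iron-sulfur subunit of succinate dehydrogenase, had the largest difference in complex II at 0.0399 ± 0.0171 (adjusted p = 0.0595), and the membrane anchor Sdhd the smallest at -0.01 ± 0.0151. In complex III the largest was that of Uqcr10, a small subunit, at 0.0673 ± 0.0312 (adjusted p = 0.0821), and the smallest that of the core protein Uqcrc1, at 0.0034 ± 0.0243. At an unadjusted p under 0.05 there were 1 of 4 members in complex II and 3 of 8 in complex III. The share of all genes at that threshold is not given.

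Complex IV held 4 calls among 13 subunits, where 39.0% of all genes were called. All 4 were in families with tissue forms, but so are most of the 13, with only Cox5a, Cox5b and Cox6c outside them. The widely expressed forms Cox6a1 and Cox8a were higher in KO, and the muscle forms Cox7a1 and Cox8b were lower. Whether the difference of a form departs from that of its partner was not tested. Cox6a1 ran from 10.813 through a median of 11.16 to 11.448 in WT and from 11.036 through 11.311 to 11.609 in KO. Of 30 KO hearts, 26 lay above the WT median, the difference was 0.173 ± 0.0406 (limma adjusted p = 0.000563), and a second probe set gave 0.101. By treatment the difference was 0.075 in controls, 0.0736 with triolein and 0.0405 with Wy14643, and 0.226, 0.345 and 0.279 with trilinolein, trilinolenin and tridocosahexaenoin. Cox6a1 gave an interaction of genotype with the mean of the 4 oils of 0.156 ± 0.119 (limma adjusted p = 0.997). It was not tested for interaction with any single oil. Its partner Cox6a2, the muscle form, differed by -0.0294 ± 0.0181 (adjusted p = 0.199).

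Cox7a1 ran from 12.66 through a median of 12.726 to 12.89 in WT and from 12.52 through 12.655 to 12.743 in KO. Of 30 KO hearts, 17 lay below every WT heart and 28 below the WT median, with a difference of -0.0872 ± 0.0171 (adjusted p = 5.14e-05). The widely expressed Cox7a2 differed by 0.0346 ± 0.0146 (adjusted p = 0.0553) and the related Cox7a2l, which takes part in joining complexes III and IV, by -0.0271 ± 0.0182. Cox8b ran from 12.855 through 12.948 to 13.057 in WT and from 12.773 through 12.893 to 13.026 in KO, a difference of -0.0586 ± 0.0184 (adjusted p = 0.00947). Cox8a ran from 8.044 through 8.401 to 8.564 in WT and from 8.223 through 8.513 to 8.686 in KO, a difference of 0.0916 ± 0.0349 (adjusted p = 0.0328). For both genes the ranges of the genotypes overlapped widely, with 9 KO hearts below every WT heart for Cox8b and 9 above every WT heart for Cox8a.

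Over 64 alternatives Cox6a1 and Cox7a1 kept their calls in all, and Cox8b lost its own under quantile normalization. Cox8a lost its call in 8, among them with each array centred on its median, without WT control 3, without WT triolein 3, without WT trilinolenin 3 and without KO triolein 5. Cox4i1, Cox6b1 and Ndufa4 each have a related form that did not pass the minimum. Cox4i1 differed by 0.0133 ± 0.0128, Cox6b1 by 0.0325 ± 0.0138 and Ndufa4, a complex IV subunit despite its name, by -0.0207 ± 0.016. None of these passed the test. The smallest difference in complex IV was in Cox5b, at 0.0025 ± 0.0196.

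**Figure D4:**
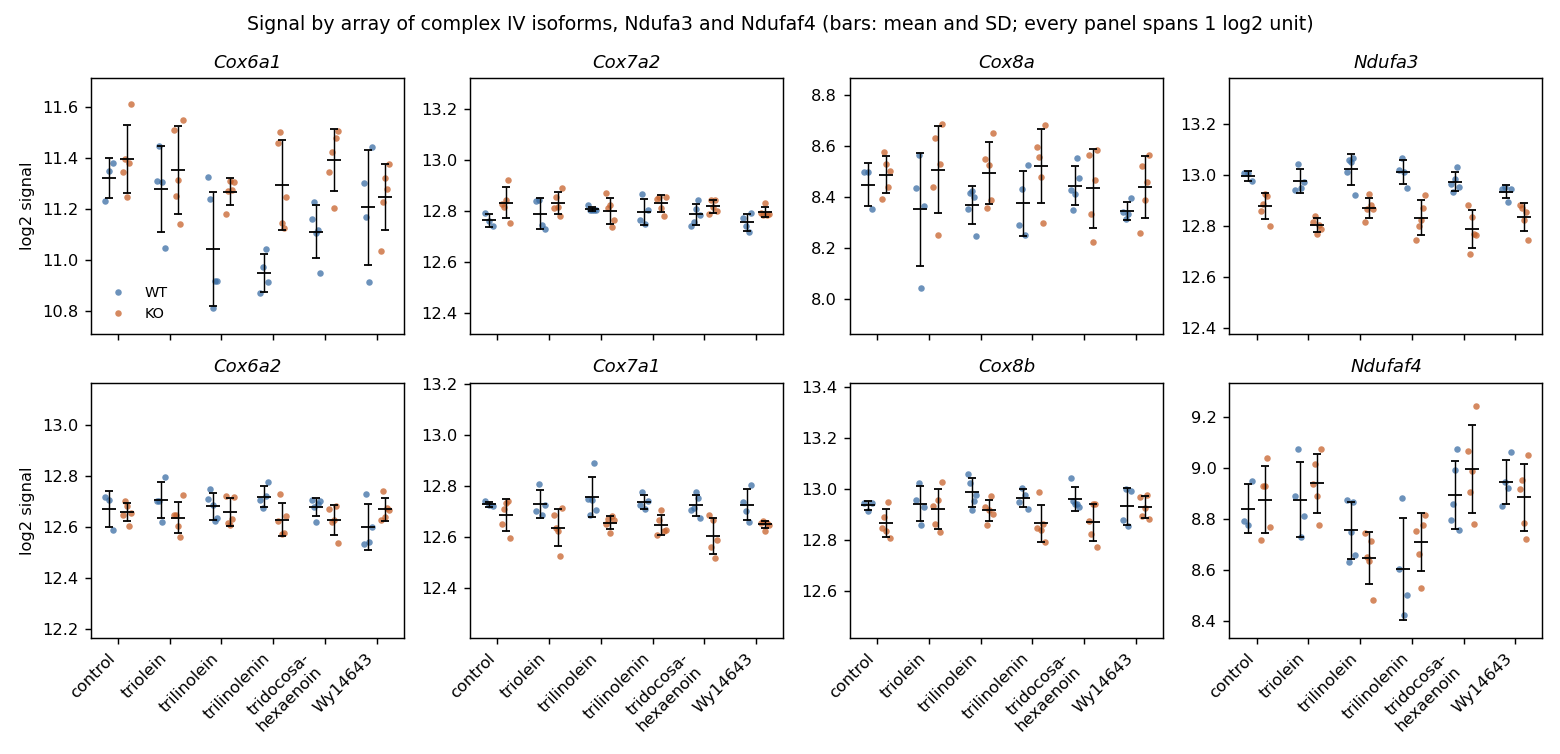
Log2 signal in every array (points, with mean and SD of each group) of the complex IV isoforms, with the widely expressed form above and the muscle form below, and of Ndufa3 and Ndufaf4. Every panel spans 1 log2 unit; Ndufa3 lies lower in KO than in WT groups throughout, and Cox6a1 is lowest in WT trilinolenin hearts.

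Complex V held 2 calls among 17 subunits, both lower in KO, where 39.0% of all genes were called. These were Atp5e, the epsilon subunit of the rotor stalk, at -0.0536 ± 0.0212 (adjusted p = 0.0401), and Atp5j, a stator subunit, at -0.0347 ± 0.0134 (adjusted p = 0.0349). The call of Atp5e was lost in 23 of 64 alternatives and that of Atp5j in 7. The 3 genes of subunit c, which forms the rotor ring, differed by 0.0031 ± 0.0158 (Atp5g1), 0.0412 ± 0.0203 (Atp5g2) and 0.0023 ± 0.0155 (Atp5g3), and none was called. The smallest difference was in Atp5b, the catalytic beta subunit, at 0.001 ± 0.0132.

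Other values moved with genotype too. The 3′ to 5′ difference of the Actb control probe sets, a sign of RNA quality, had group means of 0.593 to 0.793 in WT and 0.705 to 0.823 in KO. Of 8 macrophage markers tested, 6 were higher and 1 lower in KO, and of 9 fibroblast markers 1 was higher and 5 lower, where 39.0% of all genes were called. Their summed levels overlapped (log2 10.8 to 11.4 in WT and 10.8 to 11.3 in KO for macrophages, 12.6 to 13.1 and 12.5 to 12.9 for fibroblasts). Acta1, which the skeletal muscle list shares with the heart, was lower in KO by -1.87 ± 0.114, and the other 7 genes of that list passed the minimum in 0 arrays. Fabp4, the 1 white fat marker tested, was higher by 0.453, while Adipoq passed the minimum in 1 array and Lep and Retn in 0. Of the 2 brown fat markers tested, Cidea was lower by -0.767 and Ppargc1a higher by 0.399. Of 9 endothelial markers 2 were higher, Kdr by 0.657 the most, and 2 lower, and 2 of 5 smooth muscle markers were higher. Of 10 cardiomyocyte markers Ryr2 and Pln were higher, by 0.112 and 0.0654, and their summed level ran from 17.2 to 17.3 in both genotypes. The part of these differences in the members' values was not tested.

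The second question was whether a single load of one triglyceride, or of the agonist, moves these genes within 6 h. In WT hearts no member passed limma's test under any of the 5 treatments. At an adjusted p under 0.05, 0.0728% of all genes were called for triolein, 1.25% for trilinolein and 3.41% for trilinolenin. The shares were 1.86% for tridocosahexaenoin and 0.0607% for Wy14643. At an unadjusted p under 0.05, a looser threshold, the counts of members were 1, 2, 4, 0 and 6 of 83 in the same order. The shares are therefore no background for these counts. The share of all genes at the looser threshold is not given, so the counts are not read as many or few. The 95% interval lay within 1.2-fold for 75 of 83 members under Wy14643, for 76 under trilinolein and trilinolenin, for 77 under tridocosahexaenoin and for 78 under triolein. Members' medians were -0.00472, 0.0056, -0.0255 and -0.0113 for the oils in the order of the counts, and -0.0325 for Wy14643, where all genes had -0.0244, -0.0101, -0.0268, -0.0269 and -0.0182. Centring each array on its median gave medians above 0 for all 4 oils (0.0113 to 0.0269), so their sign depends on the scaling.

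With Wy14643 in WT hearts 67 of 83 members lay below their controls (55.9% of all genes did), and this group had the lowest mean of the 6 WT groups for 37 members (44.6%, and 19.5% of all genes). The 67 depended on scaling. Quantile normalization gave 58 with a median of -0.03, and centring each array on its median gave 57 with a median of -0.0223. The 6 members with an unadjusted p under 0.05 for Wy14643 were 4 subunits and 2 assembly factors of complex I, and the lowest adjusted p was 0.375.

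The member closest to a call in WT hearts was Cox6a1 under trilinolenin. It measured 11.231, 11.348 and 11.381 in control hearts and 10.872, 10.971, 11.043 and 10.912 after trilinolenin. The groups did not overlap (the share of all genes without overlap was not computed), and the difference was -0.371 ± 0.113 (adjusted p = 0.0567). Its second probe set gave -0.214, and 3 of 17 alternatives called it (adjusted p 0.0288 to 0.199 over all of them). The other oils gave Cox6a1 -0.278 with trilinolein, -0.209 with tridocosahexaenoin and -0.042 with triolein, with controls shared by all. In KO hearts trilinolenin gave -0.1 ± 0.0939 (adjusted p = 0.537), and whether this oil acted differently in the genotypes was not tested. The Actb 3′ to 5′ difference, a sign of RNA quality, averaged 0.793 in WT control and 0.593 in WT trilinolenin hearts, the lowest of the 12 groups. Of 9 endothelial markers Kdr alone was called there, at -0.85 (limma adjusted p = 0.0376). The 9 had a median of -0.119 and a highest value of 0.144. Of 10 cardiomyocyte markers 0 were called, and 5 atrial markers had a median of 0.647 (0.263 to 1.01) with 0 called. The part of these in the values of Cox6a1 was not tested.

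In KO hearts members were called for trilinolenin only, and the 5 treatments were set against the same 5 control hearts. For triolein, trilinolein, tridocosahexaenoin and Wy14643 limma called no member. It called 1.15%, 4.32%, 3.54% and 0.0728% of all genes in that order, at an adjusted p under 0.05. At an unadjusted p under 0.05, the counts of members were 13, 2, 15 and 2 of 83 in the same order. That threshold is looser, so the shares are no background for these counts. Without the share of all genes at it, the counts are not read as many or few. The 95% interval lay within 1.2-fold for 81, 77, 78 and 79 of 83 members in the same order. The members' medians were -0.0256, -0.0319, -0.0447 and -0.0218, where all genes had -0.0124, -0.00227, -0.0136 and -0.0216. Without KO control 5 there were 2 calls for triolein and 1 for tridocosahexaenoin. KO control hearts had the highest mean of the 6 KO groups for 50 of 83 members (60.2%, and 26.4% of all genes), which places every treated group below them for those members.

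Trilinolenin in KO hearts gave 4 called members, all lower (4.82%, where 11.9% of all genes were called). At an unadjusted p under 0.05 there were 20, and the share of all genes at that threshold is not given. Uqcrfs1, the Rieske iron-sulfur protein of complex III, measured 12.511, 12.517, 12.553, 12.493 and 12.4 in control hearts and 12.369, 12.415, 12.361, 12.379 and 12.365 after trilinolenin. Only the lowest control lay within the treated range, and the difference was -0.117 ± 0.0344 (limma adjusted p = 0.0188). Ndufs3, a core subunit of complex I, measured 11.914, 11.932, 11.98, 12.006 and 11.865 in control hearts and 11.804, 11.886, 11.839, 11.795 and 11.825 after trilinolenin. The groups again met at 1 control heart, and the difference was -0.11 ± 0.0335 (adjusted p = 0.0244). Uqcr11, a small subunit of complex III, fell by 0.122 ± 0.0416 on the log2 scale (adjusted p = 0.0457), and Ndufb1, the dimmest member that passed, fell by 0.178 ± 0.058 (adjusted p = 0.0351). Each of these genes has 1 probe set.

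The count for trilinolenin in KO hearts rested on few arrays. It was 7 without KO control 1, 2 without KO control 2, 0 without KO control 3, 9 without KO control 5, and 2 without KO trilinolenin 4 or without KO trilinolenin 5. The latter is 1 of 3 arrays with a low array weight, and without all 3 the count was 1. Of the 83 members, 74 lay below their controls and the median was -0.0533, against -0.0233 for all genes. The share of all genes below 0 is not given. This was not particular to trilinolenin. Against the same control hearts, 76 lay below for tridocosahexaenoin, 68 for trilinolein, 63 for triolein and 61 for Wy14643. For trilinolenin, quantile normalization gave 69 and centring each array on its median gave 71. Values of other kinds moved with trilinolenin in KO hearts as well. The Actb 3′ to 5′ difference averaged 0.799 in KO control and 0.705 in KO trilinolenin hearts, 2 of 9 endothelial markers were lower and 1 higher, and 2 of 9 fibroblast markers were lower. Of 8 macrophage markers Cd163 alone was called, higher by 0.69, while the median of the 8 was -0.0533. Fabp4 was higher by 0.276, and 5 atrial markers had a median of 0.606 with 0 called. Summed cardiomyocyte markers ran from 17.218 to 17.301 in control and from 17.19 to 17.255 in trilinolenin hearts. The part of these in the members' values was not tested.

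**Figure D5:**
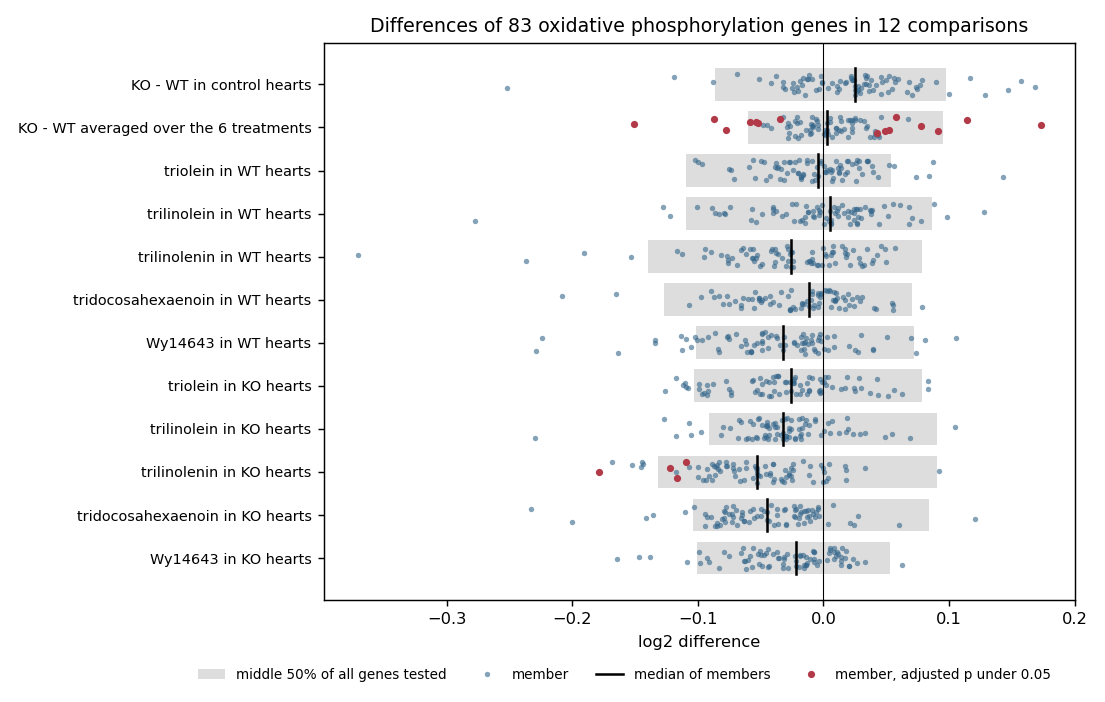
Log2 difference (horizontal axis) of each of the 83 members in 12 comparisons, with the members' median (black bar) and the middle 50% of all tested genes (grey). The red points are the 15 members called between genotypes and the 4 called for trilinolenin in KO hearts.

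Whether a treatment acted differently in the 2 genotypes was tested directly. No member passed limma's interaction test for Wy14643 (0 of 83, 2 at an unadjusted p under 0.05) or for the mean of the 4 oils (0 of 83, 3 at an unadjusted p under 0.05), and 0% of all genes passed either. Intervals of the interaction lay within 1.2-fold for 68 of 83 members with Wy14643 and for 75 with the oils.

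The 4 triglycerides differ in the number of double bonds of their fatty acid and, for tridocosahexaenoin, in its length, and were given in the same volume and taken at the same time. In 12 pairwise comparisons, 6 in each genotype, 996 tests of members gave 1 call and 20 unadjusted p under 0.05, where 0.380% of all tests of genes were called. The interval of the difference lay within 1.2-fold for 77 to 82 of 83 members in each pair. The call was Ndufaf4, an assembly factor of complex I, between the most unsaturated triglyceride and trilinolein in KO hearts. It measured 9.066, 8.905, 8.989, 8.781 and 9.241 with tridocosahexaenoin and 8.746, 8.651, 8.636, 8.714 and 8.484 with trilinolein. Every heart of the first group was above every heart of the second, and the share of all genes with such a gap was not computed. The difference was 0.35 ± 0.0839 (adjusted p = 0.0468 over all genes of the pair, 0.0478 over all genes and all 12 pairs). The call was lost in 12 of 20 alternatives, among them without KO trilinolein 2, 3, 4 or 5 and without KO tridocosahexaenoin 1, 3 or 5. Against control, Ndufaf4 differed by -0.237 after trilinolenin in WT hearts and by -0.229 after trilinolein in KO hearts, and its second probe set gave -0.316 and -0.354. Neither was called, though 2 of 20 alternatives called the latter.

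Genes that work next to the complexes were read from lists, beside the members. Of all genes, 3.62% were called between KO and WT controls and 39.0% averaged over treatments. Among 19 genes of mitochondrial fatty acid oxidation, 15 were lower in KO controls (median -0.533) and 18 were lower averaged over treatments (median -0.731), where the members had medians of 0.0248 and 0.00306. The largest were Slc25a20, the carnitine carrier, at -1.82, Decr1 at -1.77, Acot2 at -1.56 and Cpt2 at -1.44. Of 17 electron carriers and coenzyme Q genes, 3 were lower in KO controls and 8 were lower and 2 higher on average. Etfa, Etfb and Etfdh stand in both lists, and are 2 of those 3 and 3 of those 8. Etfdh, which passes electrons from fat oxidation to coenzyme Q beside complexes I and II, was lower by -1.15 ± 0.02 (adjusted p = 2.86e-41), and Coq3, a methyltransferase of coenzyme Q synthesis, by -1.45 ± 0.0419. Cycs, the cytochrome c that links complexes III and IV, was lower by -0.0472 ± 0.0149, a size like that of the members. Of 13 genes of the tricarboxylic acid cycle, which supplies the electrons, 2 were higher and 3 lower on average (median -0.00258). This share is near the 39.0% of all genes, and the differences ran from Sucla2 at -0.0909 to Suclg2 at 0.0829. Sdha to Sdhd belong to the cycle too and were counted only as members.

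Of 37 further assembly factors, 10 were higher and 5 lower in KO on average, a share near the 39.0% of all genes called. The largest was Cox10, which makes the heme of complex IV, at 0.295 ± 0.0459 (adjusted p = 8.57e-07), and after trilinolenin it fell by 0.575 ± 0.128 in WT hearts and by 0.31 ± 0.106 in KO hearts. Cox11, which delivers copper to the same complex, fell by 0.262 after trilinolenin and by 0.261 after trilinolein in KO hearts. The subunits of complex IV themselves had medians of -0.011 (WT) and -0.0277 (KO) after trilinolenin, with 0 of 13 called in either.

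Of 19 regulators of these genes, 6 were higher and 3 lower in KO on average, where 39.0% of all genes were called. Ppargc1a, the coactivator PGC-1α, was higher by 0.399 ± 0.073 (adjusted p = 1.66e-05), the estrogen-related receptors Esrrb and Esrrg by 0.404 and 0.246, and Perm1, a muscle regulator of mitochondrial genes, by 0.282. The 3 lower were Myc at -0.392, the corepressor Nrip1 at -0.271 and Tfb2m, a factor of mitochondrial transcription, at -0.0882. After trilinolein and trilinolenin Perm1 fell by 0.641 and 0.769 in WT hearts and by 0.579 and 0.586 in KO hearts (adjusted p = 0.000135 or less). Ppargc1b, the related coactivator PGC-1β, fell by 0.942 after tridocosahexaenoin in WT hearts, and in KO hearts by 0.64 after tridocosahexaenoin and 0.923 after trilinolenin. In the same comparisons the members' largest falls were 0.278 and 0.371 for trilinolein and trilinolenin in WT hearts, both in Cox6a1, and 0.229 (Ndufaf4) and 0.178 (Ndufb1) in KO hearts. For tridocosahexaenoin they were 0.209 (Cox6a1) in WT and 0.233 (Ndufaf7) in KO hearts.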

How the data were processed

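Total RNA of 55 single hearts was hybridised, 1 Affymetrix mouse genome array each, so each array is a separate animal. The deposited values are log2 probe set signals that the authors normalized with GCRMA 2.2.0, per the submitters' processing notes. Arrays give no read depth, and their number limits the precision.

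Of 45101 probe sets, 34958 carried 1 gene symbol in the platform annotation, 932 several and 9211 none; 13 control probe sets were left out. Each gene was read from its probe set with the highest mean over all arrays, and a gene was tested if at least 3 arrays had it above 20 (linear scale). The 8 member symbols found only on shared probe sets were not used. The mean of each of the 12 groups was fitted with limma 3.58.1 in R 4.3.3 (43 residual degrees of freedom), with Benjamini-Hochberg adjustment over all 8237 genes per comparison and a call at an adjusted p under 0.05. Errors are standard errors unless called SD. Counts of members at an unadjusted p under 0.05 are given without the share of all genes at that threshold. They are not read as many or few. The fit was tested on simulated data.

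Named with values were the called members of each comparison with the largest changes, the isoform families, the largest and smallest genotype difference of each complex, Ppara, and up to 4 called genes of each list. Other members named (Ndufaf2 and Ndufa3 in controls, Cox6a1 and Ndufaf4 against control) were chosen after their values were seen. The members and lists were chosen with earlier results of these data known. Alternatives were 2 filters, 2 normalizations, the mean of all probe sets, array weights, another variance prior, only the groups compared, a replicate block, leaving out each array, and, chosen after seeing the data, leaving out arrays of weight under 0.5. The labels name the control treatment both as none and as the vehicle.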

Additional observations from a re-analysis of the deposited data

Results flagged for a closer look

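In 13 of 220 groups of 4 or 5 hearts, 1 heart lay far from the rest; chance flags about 1 in 20 groups. For complex II, KO Wy14643 5 had a mean of 11.86 (others 11.952 to 11.983), KO control 5 had 11.898 (others 12.0 to 12.036) and KO triolein 2 had 11.952 (others 11.911 to 11.912). For complex III, WT triolein 3 had 12.311 (others 12.429 to 12.435).

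Among single members, Ndufa3 was 12.894 in WT Wy14643 3 (others 12.945 to 12.95) and Ndufa12 was 12.325 in WT triolein 4 (others 12.441 to 12.446). Cox8b was 13.044 in WT tridocosahexaenoin 1 (others 12.93 to 12.951), and Uqcr11 was 12.191 in KO tridocosahexaenoin 1 (others 11.982 to 12.042). Ndufaf2 was 7.591 in KO trilinolenin 5 (others 7.759 to 7.826), 7.462 in KO triolein 4 (others 7.77 to 7.843) and 8.046 in WT tridocosahexaenoin 4 (others 7.707 to 7.79). Ndufb1 was 5.518 in KO trilinolein 2 (others 5.351 to 5.398) and 5.595 in KO triolein 2 (others 5.421 to 5.444).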

How the results depend on the processing

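Among the called members and those nearest to a call, no difference reversed its direction under the alternatives run. Counts of called members that moved by more than 1.5 times follow, and the cause was not tested. Between genotypes averaged over treatments, 15 became 8 with no brightness filter, 23 with the mean of all probe sets and 24 with a trended robust variance prior, of which 7, 14 and 15 were among the 15. For KO against WT controls, 0 became 1 with a filter at 100 and with array weights. For trilinolenin in WT hearts, 0 became 1 with a filter at 100, array weights or the trended robust prior. In KO hearts, array weights gave 3 for triolein and 1 for trilinolein, and the mean of probe sets gave 2 for trilinolein and 1 for tridocosahexaenoin. For trilinolenin in KO hearts, 4 became 0 with no filter or only the groups compared, 9 with a filter at 100, 11 with the mean of probe sets or array weights, 10 with the trended robust prior and 1 without arrays of weight under 0.5. The 1 call among pairs of triglycerides became 0 with no filter, without those arrays, with only the groups compared and with the replicate block, and 3 with the mean of probe sets. Leaving out 1 array gave 11 to 18 between genotypes, 0 to 1 for controls, 0 to 2 for the pairs, and in KO hearts 0 to 9 for trilinolenin, 0 to 2 for triolein and 0 to 1 for tridocosahexaenoin; all other counts stayed at 0. Replicate numbers do not pair the hearts: deviations of arrays with the same number had a median correlation of 0.000363 (-0.29 to 0.371), and 12 of 55 arrays correlated best with their own number. The replicate block moved no other count by over 1.5 times.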
